A study of Arabidopsis thaliana with 4 samples.

Results

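Plants OX7 and OX17 are independent first-generation (T1) transformants of Arabidopsis thaliana Col-0 that carry TaSK5, a wheat GSK3/Shaggy-like kinase, under the constitutive 35S promoter. They were set directly against each other here, by the signal in the channel that held transformant RNA: Cy5 on replicate 1 of each transformant and Cy3 on replicate 2. These are 4 of the 8 channels of the series. The other 4 channels held RNA of wild-type Col-0 plants without TaSK5, and served as the control measured on the same arrays. All RNA was total RNA from rosette leaves of untreated plants aged 3 weeks, grown in soil at 22 °C in days of 16 h light and 8 h dark, with a light intensity of roughly 100 µmol m-2 s-1.

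GSK3/Shaggy-like kinases are plant relatives of glycogen synthase kinase 3. In Arabidopsis the best known of them, BIN2, phosphorylates the transcription factors BZR1 and BES1 and so restrains the brassinosteroid response, a hormone pathway that drives leaf cell expansion. Members of the family have also been tied to abscisic acid signalling, salt tolerance, stomatal development and defence. Lines made with a 35S transgene differ from each other in where and how strongly the transgene is expressed, and T1 plants are single individuals that have not been bred to a uniform line. The array has no probe for the wheat gene, so the TaSK5 level of either plant was not measured here.

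Each transformant was 1 plant, and its 2 arrays were repeat hybridisations of the same RNA with the dyes exchanged. No test between plants was therefore possible, and no p-values are given. Errors are SDs over the 2 dye orientations and hold hybridisation and dye error only. Each array was its own slide with its own scan, so plant and array cannot be told apart. The wild-type channels show how far the same kind of RNA differed between the OX7 and the OX17 arrays. The labels do not say whether both pairs of arrays used RNA of the same wild-type plants.

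Of 21500 gene probes, 19052 were free of outlier flags and well above background in both channels of at least 1 transformant, and 17391 of these were above background in all 4 transformant channels. The median transformant intensity before normalisation ran from 148.2 on OX7 replicate 1 to 432.6 on OX17 replicate 1, and the share of probes well above background from 86.43% to 95.93% on the same arrays. OX7 replicate 1 was thus the dimmest of the 4 transformant channels. Leaf markers were bright: 27 of 28 light-harvesting and photosystem genes and 20 of 22 Calvin cycle and photorespiration genes were measured. In bulk leaf RNA, fewer cells of a type and less RNA per cell cannot be told apart.

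A gene was counted as higher in a transformant when its normalised signal was at least 2-fold higher there in both dye orientations. By this rule 356 genes were higher in OX7 (1.87% of the genes measured) and 378 were higher in OX17 (1.98%). Every count below of list members past 2-fold in the transformant channels is to be read beside these shares. A single gene was at least 2-fold apart in opposite directions in the 2 orientations. In the wild-type channels, 146 genes were at least 2-fold higher on the OX7 arrays (0.766%) and 227 on the OX17 arrays (1.19%). Without normalisation between arrays the split was 103 and 232 genes. At a limit of 4-fold in both orientations the transformant counts were 50 and 38, and the wild-type counts 11 and 39. At 8-fold, 10 genes were higher in OX7 and 5 in OX17. The transformants thus differed in more genes than the wild-type channels did at 2-fold, but at 4-fold this held for the OX7 side only.

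Across the 19052 genes the differences of the transformants had an SD of 0.522 on the log2 scale in Cy5 and 0.563 in Cy3, against 0.431 and 0.442 in the wild-type channels of the same arrays. The differences in the 2 orientations had a Pearson's r of 0.69 across genes for the transformants and 0.632 for wild type. Transformant and wild-type differences of the same arrays had an r of 0.349 on replicate 1 and 0.531 on replicate 2. Between arrays of different replicates it was lower. The transformant difference in Cy5 had an r of 0.158 with wild type of replicate 2, and that in Cy3 0.245 with wild type of replicate 1. Genes are not independent replicates, and both orientations share the RNA, so these values are descriptions. The median SD of a gene over the orientations was 0.18 on the log2 scale. The genes counted were brighter than the rest: the median log2 signal was 9.46 for those higher in OX7 and 9.78 for those higher in OX17, against 8.26 over all genes. The background correction used here shrinks differences of dim spots, so a fixed 2-fold limit favours bright genes. What part this plays in their brightness was not tested.

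**Figure D1:**
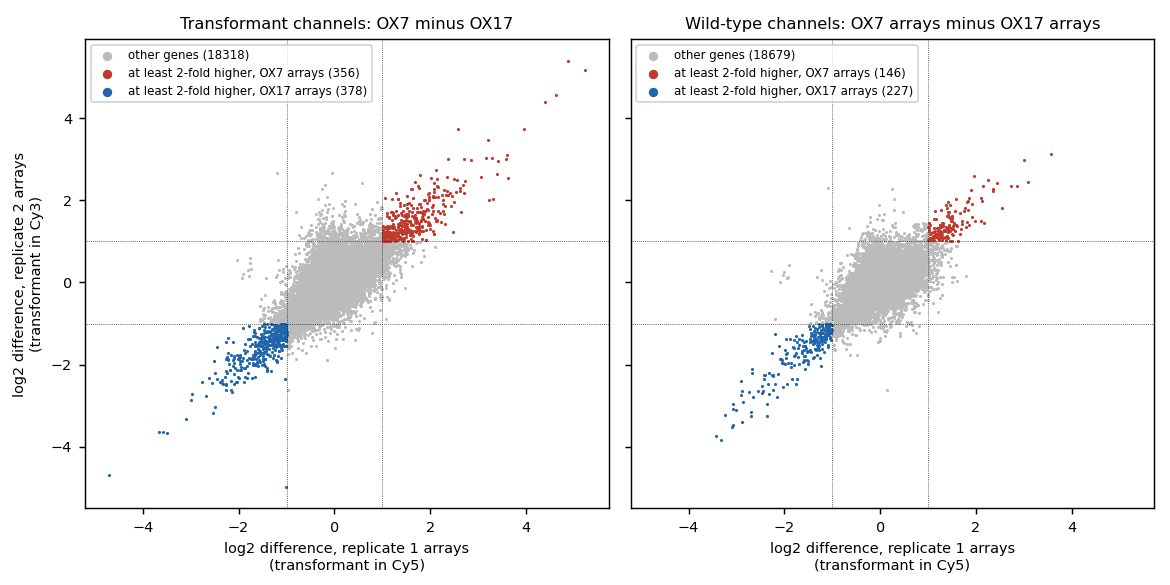
Log2 difference of each of 19052 genes on the replicate 1 arrays (x axis, transformant in Cy5) and on the replicate 2 arrays (y axis, transformant in Cy3), for the transformant channels on the left and the wild-type channels of the same arrays on the right; dotted lines mark 2-fold. The 356 and 378 coloured genes on the left reach farther from 0 on the OX7 side than the 146 and 227 on the right.

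Of the 356 genes higher in OX7, 53 were also at least 2-fold higher in wild type on the OX7 arrays in both orientations. The wild-type channels were within 1.5-fold in both orientations for 156 of them, went at least 2-fold the other way for 11, and fell between for the rest. Of the 378 genes higher in OX17, 61 were at least 2-fold the same way in wild type, 192 were within 1.5-fold, and 4 went at least 2-fold the other way. After division by wild type on each array, 183 of the 356 and 192 of the 378 remained at least 2-fold apart in both orientations. Those are 183 of 443 and 192 of 394 genes that differed by that measure. Of these, 68 of the 443 and 48 of the 394 had transformant signals within 1.5-fold of each other in both orientations, so that their difference lay in the wild-type channels.

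The largest differences towards OX7 included genes of light harvesting. LHB1B1 (AT2G34430), which encodes a chlorophyll-binding protein of the main photosystem II antenna, had log2 signals of 16.18 in Cy5 and 15.86 in Cy3 in OX7, and of 11.31 and 10.46 in OX17. Its signal was 35.2-fold higher in OX7, a log2 difference of 5.14 ± 0.38 (SD, n = 2 orientations). The wild-type channels lay between the transformants, at 13.36 and 13.72 on the OX7 arrays and 14.38 and 14.01 on the OX17 arrays. LHCB2.3 (AT3G27690), another protein of that antenna, was at 14.66 and 14.55 in OX7 and 10.04 and 9.98 in OX17, a 24.1-fold difference. Its wild-type signals were 13.34, 13.15, 12.72 and 12.30, again between the 2 plants. LHCB genes share much of their sequence, and whether these probes also bind transcripts of related genes was not tested.

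The light-harvesting and photosystem list as a whole was shifted towards OX7. Of 27 measured members, 25 had a higher signal in OX7 in both orientations, as 30.9% of all genes did, and 6 were past 2-fold, against none in the other direction. Their median difference was 0.81, beside -0.01 over all genes, and -0.13 for the same genes in the wild-type channels. Apart from the 2 antenna genes above, the members past 2-fold were PSAH2, a photosystem I subunit, at 1.41 ± 0.08, PETE1, a plastocyanin that carries electrons to photosystem I, at 1.4001 ± 0.23, and the antenna genes LHCB3 at 1.35 ± 0.07 and LHCA2 at 1.04 ± 0.03. The lowest member was LHCB4.3 at 0.17 ± 0.36. Most of the list therefore differed by less than 2-fold, and LHB1B1 and LHCB2.3 stood apart from the rest.

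Calvin cycle and photorespiration genes leaned the same way, with 15 of 20 higher in OX7 in both orientations (30.9% of all genes), 2 past 2-fold, and a median of 0.36. The 2 were RBCS1B at 1.45 ± 0.34 and RBCS3B at 1.36 ± 0.12, both small subunits of Rubisco, the enzyme that fixes carbon dioxide. Their wild-type signals were saturated on all 4 arrays, and RBCS3B was also saturated in 1 transformant channel, so these values may be compressed. The RBCS copies are nearly identical in sequence, and their signals may not be separable. Over the light-harvesting list, the summed normalised signal was 1083653 and 1093429 in the OX7 channels against 603767 and 617113 in OX17. Of its 27 members, 6 had a saturated spot in at least 1 transformant channel, so this sum is no exact ratio.

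**Figure D2:**
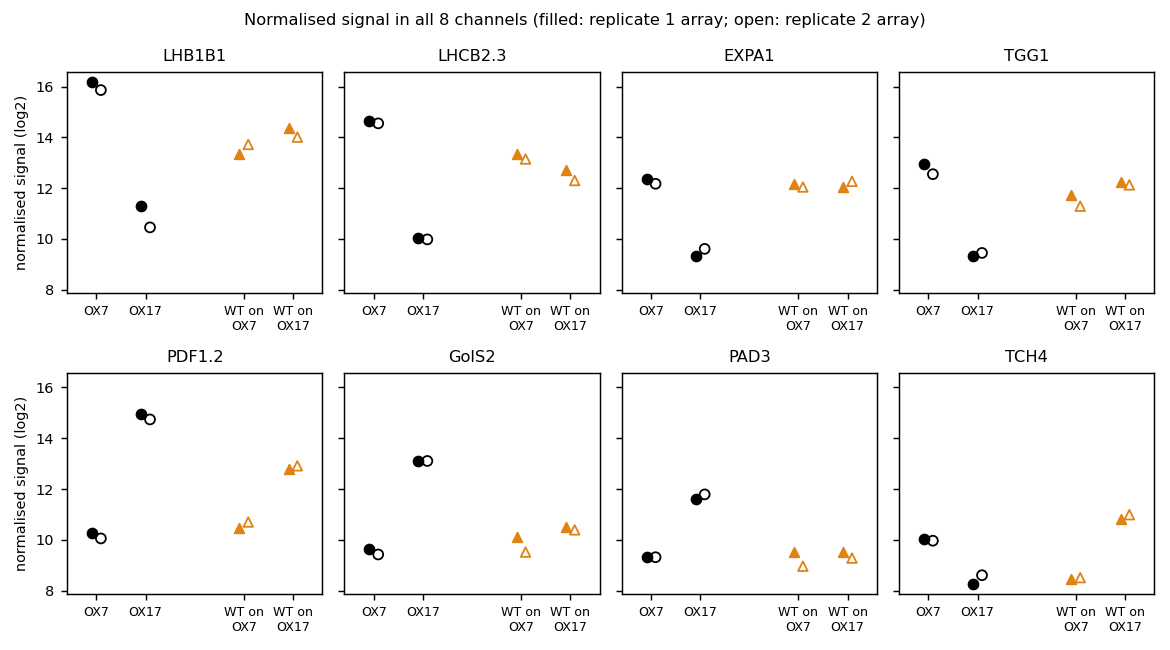
Normalised log2 signal (y axis) of 8 genes in all 8 channels: OX7 and OX17 as circles, and wild type on the OX7 and OX17 arrays as triangles, filled for replicate 1 and open for replicate 2. LHB1B1, LHCB2.3, EXPA1 and TGG1 are high in OX7 and lowest in OX17, PDF1.2, GolS2 and PAD3 are highest in OX17, and TCH4 runs opposite ways in the transformant and wild-type channels.

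Genes of cell expansion and those induced by brassinosteroids formed another group that was higher in OX7. Of 24 measured, 7 were past 2-fold towards OX7 and 1 towards OX17, beside 1.87% and 1.98% of all genes. Their median was 0.60, beside -0.08 in wild type. With Agilent's processed signals that median was 1.40. EXPA1, an expansin that loosens cell walls during growth, had log2 signals of 12.37 and 12.17 in OX7 and 9.32 and 9.61 in OX17, a difference of 2.81 ± 0.34. In wild type EXPA1 was at 12.15, 12.04, 12.06 and 12.27, close to OX7, and OX17 was the low plant. EXPA8 showed the same pattern, with a transformant difference of 2.62 ± 0.85 and a wild-type difference of 0.14 ± 0.11. EXP3 was at 7.92 and 7.40 in OX7 and at 6.60 and 5.76 in OX17, where its spot was well above background on 1 of 2 arrays, so its difference has no firm size. Among all 22 measured genes whose description names an expansin, 4 were higher in OX7 (18.2%, beside 1.87% of all genes) and none in OX17.

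The bHLH factors BEE2 and BEE3, early brassinosteroid-induced regulators of growth, differed by 2.53 ± 0.05 and 2.19 ± 0.08. HBI1, a related bHLH factor that promotes elongation in Arabidopsis, was at 10.95 and 11.08 in OX7 and 7.65 and 8.05 in OX17, an 8.97-fold difference. For all 3 the wild-type channels ran the same way past 2-fold: 1.25 ± 0.10 for BEE2, 1.74 ± 0.34 for BEE3 and 1.56 ± 0.21 for HBI1. What part of the transformant difference moves with the arrays was not tested. The member lower in OX7 was XTH24, a cell wall xyloglucan enzyme, at -1.27 ± 0.00, and its wild-type difference of -1.34 ± 0.14 was as large.

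XTH4 and TCH4, also xyloglucan enzymes of the cell wall, were higher in OX7 by 1.53 ± 0.07 and 1.56 ± 0.29, while the wild-type channels ran the other way. For TCH4 the log2 signals were 10.05 and 9.97 in OX7, 8.28 and 8.61 in OX17, 8.47 and 8.52 in wild type on the OX7 arrays, and 10.81 and 10.99 in wild type on the OX17 arrays.

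Genes that make or perceive brassinosteroids showed no common direction: 1 of 18 was past 2-fold and the median was -0.07. That gene was DWF1, a sterol reductase of brassinosteroid synthesis, at 1.71 ± 0.15, with a wild-type difference of -0.60 ± 0.09. The receptor gene BRI1 differed by 0.86 ± 0.03, its co-receptor BAK1 by -0.74 ± 0.29, and BZR1 by -0.22 ± 0.00.

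All 10 Arabidopsis GSK3/Shaggy-like kinase genes on the list were measured, and none was past 2-fold in both orientations. Their median difference was -0.16, and -0.17 in wild type. The widest was SK32, with log2 signals of 11.35 and 10.89 in OX7 and 9.99 and 10.56 in OX17, a difference of 0.84 ± 0.73 that was past 2-fold in Cy5 alone. SK32 was brighter in all 4 transformant channels than in wild type, where it lay between 9.13 and 9.80. Whether its probe also binds transcripts of the TaSK5 transgene was not tested. SK13 was lower in OX7 by -0.70 ± 0.27, ATSK12 by -0.45 ± 0.14, AT3G61160 by -0.37 ± 0.36, SK 11 by -0.33 ± 0.04 and SK42 by -0.25 ± 0.29. The remaining members were closer to 0: SK41 at -0.06 ± 0.56, SKdZeta at 0.01 ± 0.04, GSK1 at 0.10 ± 0.34 and BIN2 at 0.11 ± 0.63. For SK41, SKdZeta, GSK1 and BIN2 the sign differed between the orientations.

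Myrosinases, which cut glucosinolates into toxic products when tissue is damaged, were among the widest differences. TGG1 was at 12.93 and 12.55 in OX7 and at 9.33 and 9.45 in OX17, a 10.2-fold difference. TGG2 differed by 3.02 ± 0.54. Both genes ran slightly the other way in wild type, by -0.68 ± 0.23 and -0.53 ± 0.36. The 2 genes are close relatives, and whether their probes distinguish them was not tested. Of 22 measured members of the glucosinolate list, the only other one past 2-fold was MYB29, a regulator of aliphatic glucosinolates, at 1.19 ± 0.08. The list median was 0.06, and none of its members was past 2-fold towards OX17.

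Hormone lists on the OX7 side were those of cytokinin and auxin. The type-A response regulators ARR7 and ARR9, induced by cytokinin and acting as brakes on its signalling, differed by 1.72 ± 0.63 and 1.69 ± 0.28. They were the 2 of 12 cytokinin genes past 2-fold. The list median was 0.49, or 0.28 from the Cy3 orientation alone and 0.67 from Cy5 alone, and 0.21 in wild type. In both orientations 8 of the 12 were higher in OX7 and 4 lower, beside 30.9% and 35.6% of all genes. The wild-type differences of ARR7 and ARR9 were 0.92 ± 0.08 and 0.71 ± 0.18 in the same direction. Of 18 auxin genes, 15 were higher in OX7 in both orientations (30.9% of all genes), 3 of them past 2-fold, with a median of 0.44. The 3 were HAT2, an auxin-induced homeobox factor, at 1.43 ± 0.25, the repressor IAA14 at 1.42 ± 0.19 and the auxin exporter PIN3 at 1.19 ± 0.02. HAT2 differed more in wild type, by 2.18 ± 0.50, whereas IAA14 and PIN3 differed there by -0.21 ± 0.26 and -0.43 ± 0.01.

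Among the other genes with the largest differences towards OX7, DELTA-TIP, a water channel of the vacuole membrane, was at 13.11 and 13.32 in OX7 and 10.54 and 9.57 in OX17. Its wild-type channels ran the other way, by -1.54 ± 0.94. A second aquaporin, PIP3 of the plasma membrane, differed by 1.21 ± 0.09, but the median of 18 aquaporins was -0.19. AT1G13650, of unknown function in the files, had the largest difference of all, with log2 signals of 11.86 and 12.30 in OX7 and 6.64 and 7.12 in OX17. Its wild-type difference was 3.35 ± 0.31 in the same direction, so the arrays of OX7 and OX17 differed for this gene in both kinds of RNA.

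AT2G10940, AT5G44020, TGG1 and DELTA-TIP were, like LHB1B1, high in OX7 and low in OX17 with a wild-type difference below 0. AT2G10940 was at 13.90 and 13.79 in OX7 and at 9.50 and 9.40 in OX17, with wild type at 12.58 and 12.63 on the OX7 arrays and 13.51 and 13.57 on the OX17 arrays. AT5G44020, described as similar to vegetative storage proteins, differed by 3.18 ± 0.31. HBI1 and AT1G13650, given above, had a wild-type difference of at least 2-fold towards OX7. So did AT2G20670, at 3.84 ± 0.16 in the transformants, the CCCH zinc finger gene ATCTH at 3.33 ± 0.19 and AT5G19120 at 3.10 ± 0.10. ELP, a pEARLI 1-like protein, differed by 3.30 ± 0.41 with 0.60 ± 0.12 in wild type.

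**Figure D3:**
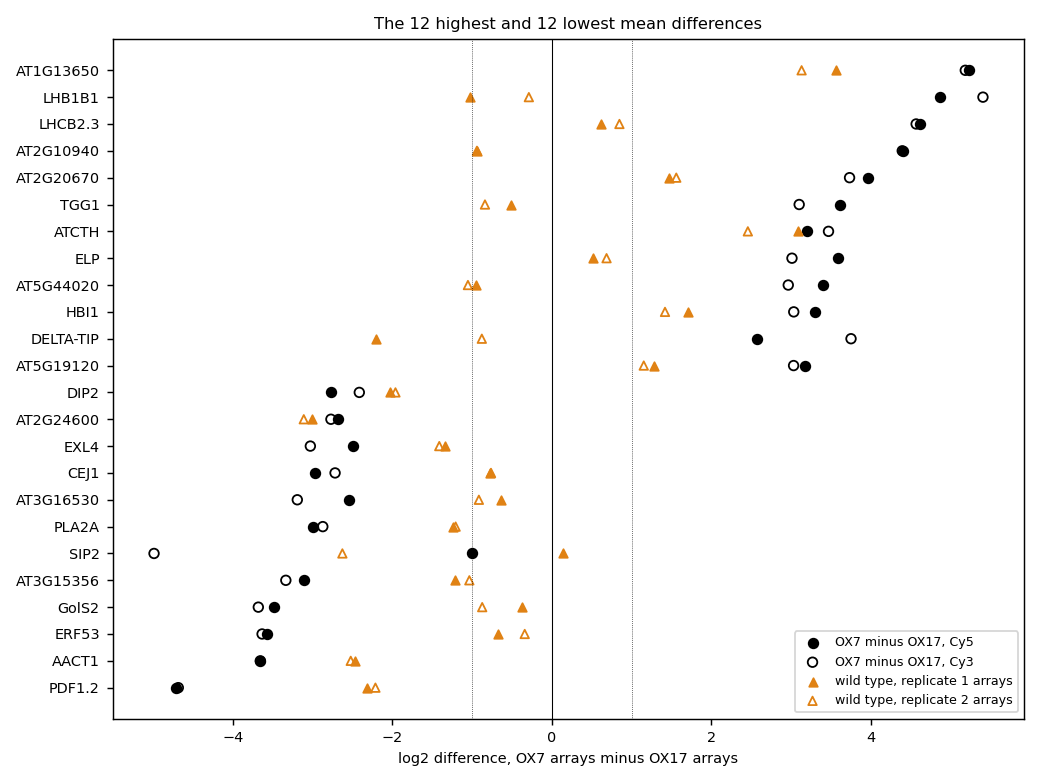
Log2 difference (x axis, OX7 arrays minus OX17 arrays) of the 12 genes with the highest and the 12 with the lowest mean difference among those past 2-fold in both orientations with no saturated transformant spot, for the transformant channels (circles) and the wild-type channels (triangles), filled for replicate 1 and open for replicate 2. The 2 circles of a gene lie farthest apart for SIP2 and DELTA-TIP. Within each replicate, the triangle lies nearer 0 than the circle for all genes but AT2G24600.

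On the OX17 side, PDF1.2, a defensin induced by jasmonate together with ethylene, showed the widest difference. It was at 10.26 and 10.06 in OX7 and 14.97 and 14.74 in OX17, 25.95-fold higher in OX17 at a log2 difference of -4.70 ± 0.02. Wild type was at 10.49 and 10.70 on the OX7 arrays and 12.80 and 12.92 on the OX17 arrays, so that wild type differed in the same direction by -2.26 ± 0.07. OX7 was close to its own wild type, and OX17 was above its own by about as much as the wild-type channels differed.

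Jasmonate is a lipid-derived hormone of wounding and defence, made from linolenic acid by lipoxygenases and further enzymes in the chloroplast and peroxisome. Of 12 synthesis genes measured, 11 were lower in OX7 in both orientations, as 35.6% of all genes were. Of these 4 were past 2-fold, and the median was -0.99 beside -0.26 in wild type. OPR3, the reductase of the peroxisomal step, was at 11.22 and 11.17 in OX7 and 13.21 and 12.98 in OX17, a 3.73-fold difference. The lipoxygenase genes LOX3 and LOX4 differed by -1.77 ± 0.17 and -1.37 ± 0.04, and the ligase gene OPCL1 by -1.65 ± 0.22. For LOX3, OPCL1 and LOX4 the wild-type channels ran the same way, by -1.58 ± 0.04, -1.17 ± 0.34 and -1.05 ± 0.13, and for OPR3 by -0.53 ± 0.03.

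Of 18 jasmonate response genes, 7 were past 2-fold towards OX17 and 1 towards OX7, beside 1.98% and 1.87% of all genes. In both orientations 14 were lower in OX7 and 4 higher, beside 35.6% and 30.9% of all genes. The list median was -0.998, beside -0.20 in wild type. After PDF1.2, the largest towards OX17 were AT5G05600, an oxygenase gene, at -1.44 ± 0.12 and TAT3, a tyrosine aminotransferase gene induced by jasmonate, at -1.42 ± 0.14. TAT3 ran the other way in wild type, by 1.08 ± 0.12. The JAZ genes, which encode repressors that jasmonate itself induces, lay on the OX17 side with 1 exception among those measured. JAZ1 differed by -1.32 ± 0.13, JAZ5 by -1.19 ± 0.10 and JAZ6 by -1.13 ± 0.10, whereas JAZ3 was at 0.73 ± 0.07. In wild type JAZ1, JAZ5 and JAZ6 ran the same way by -1.06 ± 0.10, -0.97 ± 0.07 and -0.53 ± 0.20. VSP2, a vegetative storage protein gene that jasmonate also induces, went against the list: it was at 12.13 and 11.79 in OX7 and 10.21 and 10.00 in OX17, and at most 8.69 in wild type. VSP1 and JMT also lay towards OX7, at 0.73 ± 0.54 and 1.04 ± 0.12, but were not past 2-fold in both orientations. The list thus held members that differed past 2-fold in both directions.

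All 23 measured genes of salicylic acid defence and camalexin were lower in OX7 than in OX17 in both orientations, beside 35.6% of all genes. Of these 7 were past 2-fold, and the median was -0.78, beside 0.10 in the wild-type channels. PAD3, the cytochrome P450 of the last step to the antimicrobial compound camalexin, was at 9.34 and 9.32 in OX7 and 11.61 and 11.79 in OX17. Wild type lay with OX7, at 9.54, 8.97, 9.52 and 9.29, so OX17 was the high plant. WRKY18, a transcription factor of defence, differed by -1.73 ± 0.07 and WAK1, a wall-associated receptor kinase, by -1.78 ± 0.55, and neither was past 2-fold in wild type. WRKY40 differed by -1.99 ± 0.14, and more in wild type, by -3.31 ± 0.29. The classical salicylic acid markers PR1 and PR5 differed by -0.20 ± 0.10 and -0.41 ± 0.10 only.

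The oxidative stress list held 5 of 21 genes past 2-fold towards OX17 and 1 towards OX7, beside 1.98% and 1.87% of all genes. Its median was -0.57, and 0.08 in wild type. GSTF6, a glutathione transferase of detoxification, was at 10.53 and 10.93 in OX7 and 12.62 and 13.40 in OX17, with wild type between 10.54 and 11.02. GSTU4 and GSTF7, of the same enzyme class, differed by -1.93 ± 0.22 and -1.75 ± 0.29. GSTF6 and GSTF7 are near-identical neighbours, and whether their probes separate them was not tested. TL29, a peroxidase-like protein of the thylakoid lumen, went the other way at 1.81 ± 0.11.

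Abscisic acid takes part in the responses to drought and cold, and its list here also holds genes of the dehydration response. The 30 genes measured on that list had a median of -0.72, beside -0.17 in wild type. Of them 7 were past 2-fold towards OX17 and none towards OX7, beside 1.98% and 1.87% of all genes. In both orientations 20 were lower in OX7 and 8 higher, beside 35.6% and 30.9% of all genes. GolS2, a galactinol synthase that feeds the protective raffinose sugars, was at 9.63 and 9.43 in OX7 and 13.12 and 13.11 in OX17, a log2 difference of -3.58 ± 0.14. Wild type was at 10.12 and 9.52 on the OX7 arrays and 10.50 and 10.40 on the OX17 arrays, close to OX7. The dehydrins ERD10 and ERD14, which protect cells under water loss, differed by -2.15 ± 0.21 and -1.75 ± 0.48, and LTI78, a gene induced by cold and drought, by -1.91 ± 0.19 with wild-type signals of 7.71, 7.95, 7.74 and 7.93. RAB18, another dehydrin, was at 0.48 ± 0.04, RD22 at 0.82 ± 0.24 and the proline synthesis gene P5CS1 at 0.87 ± 0.16, so the list did not run one way throughout.

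Transcription factors and enzymes outside the lists were also among the widest towards OX17. ERF53, an AP2-type factor linked to drought, was at 7.34 and 7.503 in OX7 and 10.92 and 11.14 in OX17, a 12.1-fold difference with -0.51 ± 0.24 in wild type. CEJ1, of the same factor class, differed by -2.84 ± 0.17. The acyltransferase gene AACT1 differed by -3.66 ± 0.00, and by -2.50 ± 0.04 in wild type. PLA2A, a patatin-like lipid hydrolase of defence, differed by -2.93 ± 0.09 with -1.22 ± 0.02 in wild type, and the lectin genes AT3G15356 and AT3G16530 by -3.22 ± 0.16 and -2.87 ± 0.46. AT2G24600 and DIP2 differed by -2.72 ± 0.07 and -2.59 ± 0.25, and by -3.06 ± 0.08 and -1.996 ± 0.05 in wild type. AT2G24600 was the only one of the 24 widest genes whose wild-type difference was larger than that of the transformants.

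SIP2, a glycosyl hydrolase of raffinose metabolism, is a case where the orientations disagreed in size: its difference was -1.01 in Cy5 and -4.99 in Cy3. OX7 was at 9.15 on replicate 1 and at 5.74 on replicate 2, where its spot was not well above background, so OX7 was measured on 1 of 2 arrays. Wild type on the same array was low too, at 6.70 against 8.97 on the other OX7 array.

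The senescence list had a median of -0.59, and 0.03 in wild type. Of its 15 genes, 4 were past 2-fold towards OX17 and none towards OX7, beside 1.98% and 1.87% of all genes. The 4 were WRKY53, a regulator of the onset of senescence, at -2.04 ± 0.13, SAG21 at -1.77 ± 0.22, XTH24 and WRKY6 at -1.21 ± 0.29. WRKY53 differed more in wild type, by -2.72 ± 0.09. SAG12, a protease gene specific to ageing leaves, was at -0.17 ± 0.53.

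Heat shock protein genes, which encode chaperones and their regulators, ran towards OX17 in the transformants and towards the OX7 arrays in wild type. Of 17, 4 were past 2-fold towards OX17 and none towards OX7, beside 1.98% and 1.87% of all genes. The median was -0.41, while the wild-type median was 0.36. In wild type 3 members were past 2-fold the other way, beside 0.766% of all genes. HSP70 was at 10.82 and 10.87 in OX7 and 12.28 and 12.73 in OX17, against 11.41 and 11.67 in wild type on the OX7 arrays and 9.82 and 10.26 on the OX17 arrays. HSP90.1 behaved alike, at -1.53 ± 0.02 in the transformants and 1.57 ± 0.20 in wild type. HSFA2, a heat shock transcription factor, differed by -2.01 ± 0.63 and the chaperone gene HSP101 by -1.15 ± 0.04.

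ER bodies are stores of beta-glucosidase in the endoplasmic reticulum that serve defence. Of 15 genes of ER bodies and jacalin lectins, 11 were lower in OX7 in both orientations (35.6% of all genes) and 2 were past 2-fold: the lectin gene JR1 at -1.40 ± 0.08 and the glucosidase gene PYK10 at -1.22 ± 0.11. The median was -0.50, beside -0.01 in wild type.

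The touch, wounding and early stress list, of genes that respond rapidly to handling, differed more in the wild-type channels than in the transformants. In the transformants 5 of 28 were past 2-fold towards OX17 and 2 towards OX7, with a median of -0.18. In the wild-type channels 17 of the 28 were past 2-fold higher on the OX17 arrays and 1 on the OX7 arrays. Over all genes these wild-type shares were 1.19% and 0.766%. The wild-type median of the list was -1.57. The 5 towards OX17 included TCH3, a calmodulin-like gene, at -1.85 ± 0.23, the factor MYBR1 at -1.81 ± 0.04 and EXL2 at -1.79 ± 0.10, and their wild-type channels ran the same way by -1.74 ± 0.04, -1.11 ± 0.16 and -1.27 ± 0.08. TCH4 ran the opposite way in the transformants, as given above. PP2-A13 was the other gene towards OX7, at 1.19 ± 0.26, and differed by 1.39 ± 0.05 in wild type. After division by wild type the median difference of the list was 1.00, with the sign turned.

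**Figure D4:**
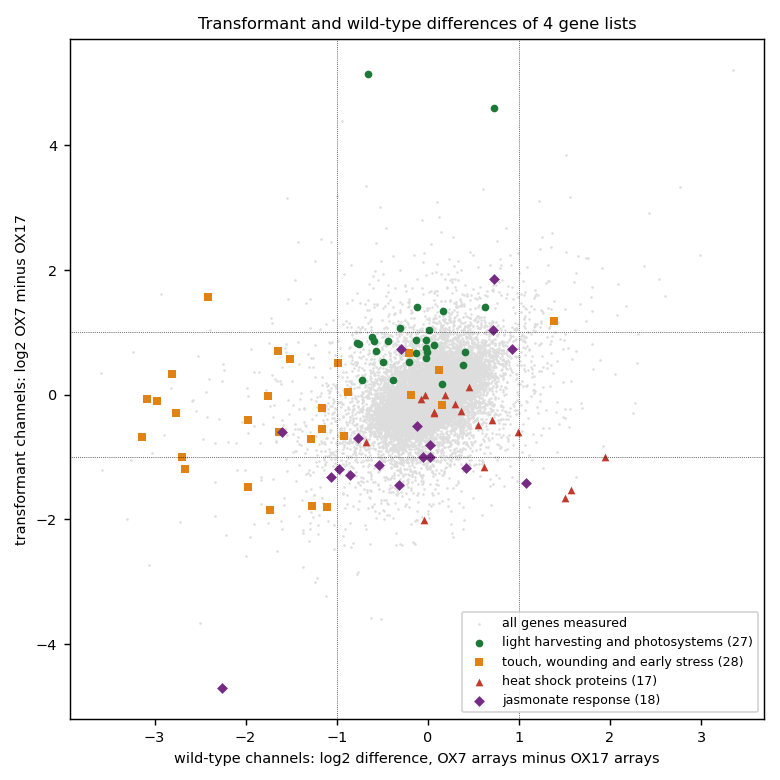
Mean log2 difference of the transformants (y axis, OX7 minus OX17) against that of the wild-type channels (x axis, OX7 arrays minus OX17 arrays) for all genes measured (grey) and the measured members of 4 lists; dotted lines mark 2-fold. Light-harvesting genes lie above 0 on the y axis with wild type near 0, the touch genes spread far to the left, and heat shock genes lie mostly below 0 on the y axis and above 0 on the x axis.

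Sugar starvation and dark response genes differed in both directions, 4 of 22 towards OX17 and 2 towards OX7. In wild type 7 of the 22 were past 2-fold higher on the OX17 arrays and 3 on the OX7 arrays. Over all genes these wild-type shares were 1.19% and 0.766%. EXL4 differed by -2.76 ± 0.38, BCAT-2, an aminotransferase of branched-chain amino acids, by -2.03 ± 0.10 and the beta-amylase gene BAM1 by -1.56 ± 0.09. Their wild-type channels ran the same way, by -1.38 ± 0.05, -1.09 ± 0.01 and -0.39 ± 0.05. DIN10, a dark-induced hydrolase gene, differed by 1.91 ± 0.23 with -0.60 ± 0.29 in wild type. Nitrogen genes likewise went both ways, 2 of 18 in each direction. LBD39, a repressor of nitrate-responsive genes, was higher in OX7 by 2.05 ± 0.14, and by 1.09 ± 0.05 in wild type. The asparagine synthetase gene ASN2 was higher in OX7 by 1.64 ± 0.50, whereas the cytosolic glutamine synthetase gene GSR 1 and the nitrate transporter gene NRT1.7 were lower by -1.61 ± 0.03 and -1.25 ± 0.08.

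The clock list held 1 of 19 genes past 2-fold, COL2, a CONSTANS-like gene, at 12.96 and 12.82 in OX7 and 11.04 and 10.89 in OX17. Wild type was at 12.85, 12.55, 12.86 and 12.59, level with OX7. The morning genes LHY and CCA1 differed by -0.73 ± 0.11 and -0.25 ± 0.40, and the median of the list was -0.25. Among flavonoid genes 1 of 20 was past 2-fold, PAP1, a MYB activator of anthocyanin synthesis, at -1.30 ± 0.15, with a list median of -0.05. The ferritin gene FER3 was the only 1 of 15 iron and copper genes past 2-fold, at 1.20 ± 0.06.

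Lists with no member past 2-fold were those of phosphate starvation, cell division, cytosolic ribosomal proteins, reference genes, and floral organ and pollen markers, besides the GSK3 kinases. Their medians ran from -0.16 to 0.23. Taken relative to all genes, the median turned sign under at least 1 of 12 alternatives on channel signals for the reference gene, floral, root, flavonoid, glucosinolate, aquaporin, sugar starvation and brassinosteroid synthesis lists. After division by wild type the medians of the GSK3 kinase, phosphate, ribosomal protein, clock, iron and touch lists turned as well. The widest members were SRG3 at 0.86 ± 0.31 for phosphate, CYCB1;4 at 0.60 ± 0.19 for cell division, RPL16A at 0.57 ± 0.30 for ribosomal proteins, UBC9 at -0.57 ± 0.36 for reference genes and AT5G45880 at 0.46 ± 0.45 for floral markers. The reference genes, which are chosen in practice for even expression, thus stayed within 1.5-fold on average.

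Markers of other tissues were compared because a rosette sample can hold parts of them. The summed signal of 15 measured floral and pollen markers was 5571 and 6340 in OX7 and 5313 and 5483 in OX17. For 10 root markers it was 2084 and 2178 against 1911 and 1822, and 1 of them, AGL42, was past 2-fold at 1.66 ± 0.21. The root list as a whole was not shifted towards OX7, with a median of -0.05. In both orientations 2 root markers were higher in OX7 and 4 lower, beside 30.9% and 35.6% of all genes. For 10 guard cell markers it was 4339 and 4446 against 2868 and 2887. Guard cell markers past 2-fold were MYB60, a factor of stomatal opening, at 1.12 ± 0.09 and AT1G22690 at 1.52 ± 0.34. Their wild-type differences were 0.44 ± 0.04 and -0.84 ± 0.25. The guard cell list median was 0.35. In both orientations 6 of its 10 members were higher in OX7 (30.9% of all genes) and none lower. Summed signal of guard cell markers was thus higher in OX7 together with the leaf lists. A large part of that difference came from AT1G22690, at 10.15 and 9.77 in OX7 and 8.39 and 8.50 in OX17. The part of guard cell signal in the other results was not tested.

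**Figure D5:**
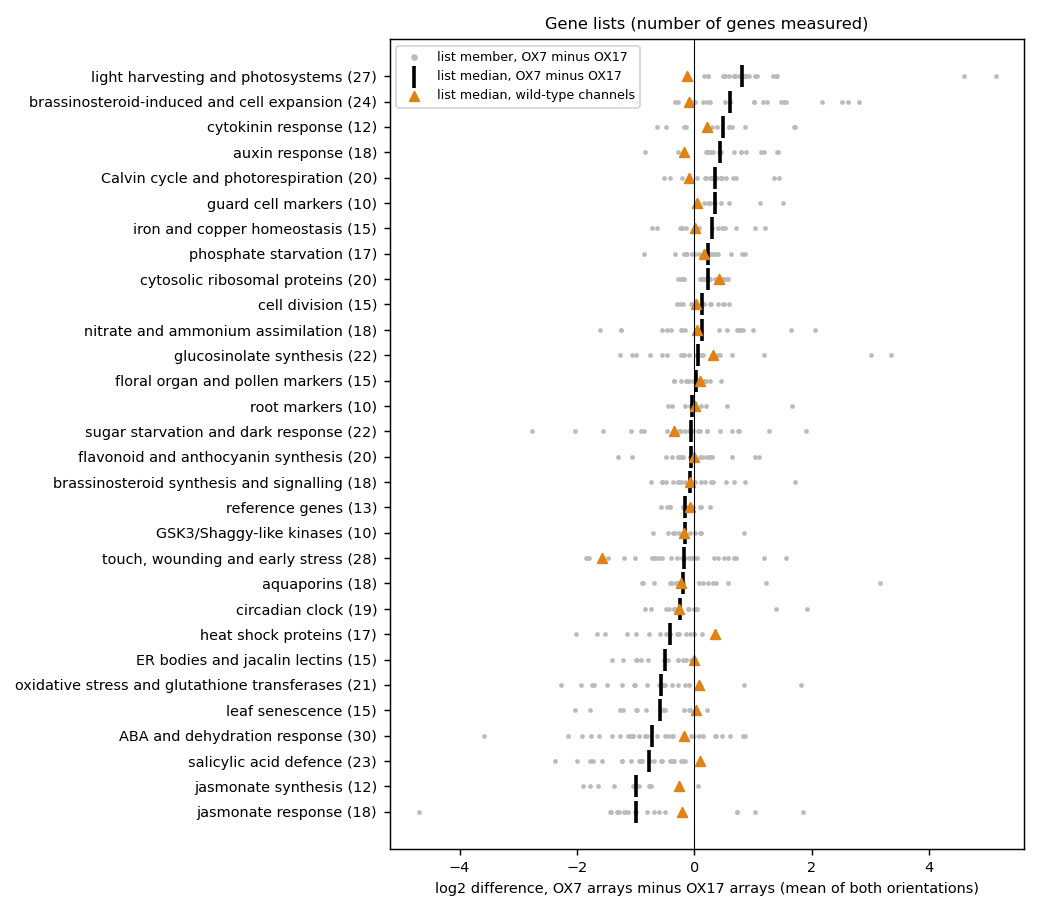
Mean log2 difference (x axis, OX7 arrays minus OX17 arrays) of the measured members of 30 gene lists in the transformant channels (grey points), with the list median (black bar) and the median of the same genes in the wild-type channels (triangle); the vertical line is the median over all genes, -0.01. Medians run from -0.998 for jasmonate response to 0.81 for light harvesting, and the wild-type median is farthest from 0 for the touch list.

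Genes were also grouped by words in the probe descriptions, with the words chosen after values had been seen. These groups overlap with the lists. For example, LHB1B1, LHCB2.3, WRKY18, WRKY40, WRKY53, GSTF6, GSTF7 and GSTU4 are counted in both. The shares below are therefore not independent of the list results. Of 65 genes described as WRKY factors, 10 were higher in OX17 (15.4%) and none in OX7. Of 42 glutathione transferases 6 were higher in OX17 (14.3%) and 1 in OX7, and of 35 lectins 4 and none. Kinases had 47 of 969 higher in OX17 (4.85%) and 10 in OX7 (1.03%). In the other direction, 5 of 20 chlorophyll a/b binding proteins (25.0%) and 8 of 152 genes of pectin metabolism (5.26%) were higher in OX7, and none in OX17. Over all genes the shares were 1.87% towards OX7 and 1.98% towards OX17. Median differences were -0.155 for WRKY factors, -0.242 for glutathione transferases, -0.184 for lectins and -0.087 for kinases. They were 0.749 for chlorophyll a/b binding proteins and 0.039 for pectin genes. Ribosomal proteins of all compartments had 6 of 271 higher in OX7 (2.21%), near that share, and none in OX17. MYB factors, with 5 of 159 in each direction, and disease resistance proteins, with 4 of 237 in each, showed an even split. The share of genes higher in OX7 was between 1.54% and 2.07% on each of the 5 chromosomes, and that of genes higher in OX17 between 1.83% and 2.26%.

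Near the limit, the last genes counted towards OX7 were SAMTL, a mitochondrial carrier, with differences of 1.0955 and 1.003, and PP2-A13 with 1.003 and 1.38. Just outside were RPL12-A, a plastid ribosomal protein, with 0.998 and 1.31 and DOT3 with 1.31 and 0.9997. Towards OX17 the last counted were RLP38, a receptor-like protein, with -1.0007 and -1.21 and AT5G42530 with -1.03 and -1.0005, and just outside were RABH1c with -1.14 and -0.9998 and ABCG40 with -0.9987 and -1.01. Genes on the 2 sides of the limit had similar differences, and whether they differ beyond hybridisation error was not tested.

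Among genes whose difference had opposite signs in the 2 orientations, those with the largest opposite differences, by the smaller of the 2, were AT5G30584, annotated as related to transposons, with -1.20 in Cy5 and 2.68 in Cy3, TBL11, measured on 1 of 2 OX17 arrays, with 1.08 and -0.89, AT1G24320 with 0.83 and -0.99, and PAR1 with 0.84 and -0.96. In each of them the wild-type channels of the same arrays disagreed too: their SD over the orientations was 2.40 for AT5G30584, 1.14 for TBL11, 1.20 for AT1G24320 and 1.40 for PAR1. For AT5G30584 the transformant and wild-type signals were both high on OX7 replicate 2, at 11.06 and 11.10, and between 8.30 and 9.50 in the other 6 channels. These values belong to single spots on single arrays.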

How the data were processed

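The members and gene lists were chosen with earlier results of these data known. Per the file headers, Agilent Feature Extraction 7.5.1 produced the mean and local background intensity of each spot in both channels, which the authors deposited. The authors also deposited a table of log2 ratios, with limma named in the submitters' processing notes and its settings not given in the sources used here. The labels state that 500 ng of total RNA was labelled after linear amplification. With limma 3.58.1 in R 4.3.3, intensities were corrected by normexp (offset 50), normalised by loess within arrays with 1075 control spots at weight 0, and by quantiles of average intensity between arrays, which assumes equal overall signal in both plants. Normexp with its offset shrinks differences of dim spots. Flagged probes were left out and saturated ones kept. Log2 signals were then subtracted, OX7 minus OX17, within each dye. The steps were tested on simulated data. Symbols came from the TAIR10.1 gene table, which held 21191 of 21500 loci. The probes have no stated build, so positions are left out, and sequences were not analysed here.

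Named genes are the 12 highest and 12 lowest differences past 2-fold in both orientations without saturation, up to 4 members past 2-fold of each of 30 lists or the widest member, all GSK3 kinases, the 3 widest past 2-fold the same way in wild type, the 2 genes on each side of each limit, and the 4 with the largest differences of opposite sign between orientations. Other list members given with values were chosen after their values were seen.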

Additional observations from a re-analysis of the deposited data

Results flagged for a closer look

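The results here are those whose transformant difference ran one way in both dye orientations and whose wild-type difference ran the other way in both, for lists whose median in each single orientation was at least 0.1 from 0 on the log2 scale and for named genes past 2-fold on both sides. The difference between the 2 kinds of channel was not tested. TCH4 differed by 1.56 in the transformants and -2.41 in wild type. HSP70 differed by -1.66 and 1.5002, and HSP90.1 by -1.53 and 1.57. Among lists, the median for heat shock proteins was -0.41 in the transformants and 0.36 in wild type. The auxin response median was 0.44 against -0.18, and that of oxidative stress and glutathione transferases -0.57 against 0.08.

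Over all genes measured, 11 genes higher in OX7 and 4 higher in OX17 went at least 2-fold the other way in wild type. The 4 were HSP70, HSP90.1, AT5G48570 and SIS, and the widest wild-type difference among the 11 was that of ORA47, at -2.93 beside 1.62 in the transformants. These genes were picked after their values were seen.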

How the results depend on the processing

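Of 14 alternatives, 10 kept the counts of 356 genes higher in OX7 and 378 higher in OX17 within 1.5 times. Some of the 10 only changed which probes were kept and used the same signals, so their counts could move little. Division by wild type gave similar counts with partly other genes. It kept 183 of the 356 and 192 of the 378, and the authors' deposited ratios kept 181 and 194. Agilent's processed signals gave 632 and 624, with 269 and 352 in wild type. Without normalisation between arrays the counts were 103 and 232, with 19 and 134 in wild type, and the median of all genes moved to -0.25 in log2. Using 1 orientation alone gave 645 to 771 genes higher in OX7 and 550 to 647 higher in OX17, with 286 to 302 and 297 to 364 in wild type, since both orientations no longer had to pass. After division by wild type WRKY40 reversed to 1.31, WRKY53 to 0.68, AT2G24600 to 0.33, XTH24 to 0.065, HAT2 to -0.75 and PP2-A13 to -0.20; with the authors' deposited ratios these were 1.29, 0.72, 0.35, 0.0195, -0.75 and -0.21. Relative to all genes, list medians of at least 0.3 in size moved by over 1.5 times for brassinosteroid-induced genes (0.61 to 1.43) and auxin (0.45 to 0.77) with Agilent's processed signals, light harvesting (0.82 to 1.42) and the Calvin cycle (0.37 to 0.79) without normalisation between arrays, cytokinin (0.50 to 0.30) and iron (0.31 to 0.17) without replicate 1, and iron without a filter on dim probes (0.16). After division by wild type, jasmonate synthesis (-0.59), jasmonate response (-0.41), heat shock (-0.62) and iron (-0.01) did so, and the Calvin cycle (0.21) with the authors' deposited ratios. No paired analysis was possible because each transformant was 1 plant and no test was made. Promoter motifs were not analysed here. Signal over background limits dim genes: 198 measured genes had no OX7 channel well above background.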
